A study of Mus musculus with 13 samples.

Results

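The endocannabinoid system of dorsal root ganglion (DRG) cells is described here through 10 genes, the 2 cannabinoid receptors and 8 enzymes that make or break down their lipid ligands. They were chosen by name, Cnr1, Cnr2, Napepld, Faah, Naaa, Dagla, Daglb, Mgll, Abhd6 and Abhd12, and each was found once among the 41388 genes of the 13 libraries. The libraries hold RNA of cells sorted by fluorescence from DRG of mice aged 3 months. All 4 groups share the strain C57BL/6 (C57BL/6J in the design text) and the Ret-EGFP reporter, in which enhanced green fluorescent protein marks cells that express the receptor tyrosine kinase Ret. The genotype label names a transgene, Tg(Ret-EGFP)SJ, while the design text describes heterozygotes with EGFP inserted into the Ret locus, so the form of the allele cannot be settled from the labels. The groups are male L6S1 (4 libraries, A, D, E and F), female L6S1 (3 libraries, A, B and C), male L345 (3 libraries, A, B and C) and female L345 (3 libraries, A, B and C), where L6S1 stands for ganglia of the spinal levels L6 and S1 and L345 for those of L3 to L5. Each library pools ganglia of 2 to 9 mice, and whether pools of the same letter, or of both levels, share mice is not stated in the labels. Sex is tied to when the samples were submitted, so sex and submission cannot be told apart. Male L6S1 E and F belong to a later submission than the other male libraries. No treatment was given, and the design sets the L6S1 ganglia, which carry many pelvic visceral afferents, beside the L345 ganglia, which serve mainly the hindlimb, in each sex.

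Endocannabinoids are lipid messengers that are made on demand from membrane lipids and act mostly on the terminals of neurons. The receptor CB1, encoded by Cnr1, couples to inhibitory G proteins and reduces transmitter release, also in sensory neurons, while CB2, encoded by Cnr2, is found mainly in cells of the immune system. One ligand, anandamide, is released by the phospholipase encoded by Napepld and broken down by the amidases encoded by Faah and Naaa, and the other, 2-arachidonoylglycerol, is made by the diacylglycerol lipases encoded by Dagla and Daglb and broken down by the hydrolases encoded by Mgll, Abhd6 and Abhd12.

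Total counts ran from 13030096 to 27011995 per library, and 15406 genes passed the filter on low counts and were tested. Ret was present in every library, at 87.2 to 221 CPM, the share of a library's counts scaled to its size. The 9 neuron markers looked at were detected and summed to 7819 to 13353 CPM, while the 10 markers of satellite glia and Schwann cells summed to 2388 to 4619 CPM. Most of the glial sum was Pmp22 alone, at 1922 to 3690 CPM, whereas Sox10, a defining glial gene, was at most 9.36 CPM. Male L6S1 D and E stood apart, at 4.84 and 7.38 SDs from the other 11 libraries on the first principal component of log2 CPM. In D and E the 7 peptidergic nociceptor markers summed to 23434 and 30692 CPM, against 8036 to 14009 CPM in the other 11 libraries, and the glial gene Fabp7 was at 549 and 607 CPM, against 113 to 258 CPM.

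Promoter sequences are shown for Cnr1 and Mgll, whose L6S1 and L345 libraries did not overlap in 1 sex, and for Cnr2, all but undetected. They come from the RefSeq promoter table of GRCm38.p6, which holds 8 of the 10 genes, and span 250 bases before to 50 bases after the transcription start nearest to the annotated gene start. Capitals mark the matches to any of 5 motifs searched on both strands, with no motif contained in another. The searches were for the TATA element TATAAA, the cAMP response element TGACGTCA, the GC-rich element GGGCGG, the E-box element CACGTG and the CCAAT-box element CCAAT. All 3 stretches are on the plus strand. Napepld, whose male groups also did not overlap, is in the table too but holds none of the 5 motifs on either strand, and it is not printed. Of the members whose groups did not overlap between levels, Cnr1 and Mgll hold the E-box and Napepld does not. Any part of the E-box in the levels was not tested.
Cnr1 promoter, chr4:33924394-33924693: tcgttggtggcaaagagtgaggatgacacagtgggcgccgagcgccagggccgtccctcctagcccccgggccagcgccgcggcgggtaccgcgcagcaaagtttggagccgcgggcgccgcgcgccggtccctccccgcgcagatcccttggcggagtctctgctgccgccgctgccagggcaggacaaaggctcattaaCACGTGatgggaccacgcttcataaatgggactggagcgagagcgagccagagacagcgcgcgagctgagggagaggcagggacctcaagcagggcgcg
Cnr2 promoter, chr4:135894939-135895238: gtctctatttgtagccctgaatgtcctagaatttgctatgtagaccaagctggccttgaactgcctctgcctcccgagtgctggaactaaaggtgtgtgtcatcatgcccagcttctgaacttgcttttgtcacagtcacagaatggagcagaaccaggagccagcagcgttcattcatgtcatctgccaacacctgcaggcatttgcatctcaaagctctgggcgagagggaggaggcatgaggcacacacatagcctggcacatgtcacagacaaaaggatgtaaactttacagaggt
Mgll promoter, chr6:88724162-88724461: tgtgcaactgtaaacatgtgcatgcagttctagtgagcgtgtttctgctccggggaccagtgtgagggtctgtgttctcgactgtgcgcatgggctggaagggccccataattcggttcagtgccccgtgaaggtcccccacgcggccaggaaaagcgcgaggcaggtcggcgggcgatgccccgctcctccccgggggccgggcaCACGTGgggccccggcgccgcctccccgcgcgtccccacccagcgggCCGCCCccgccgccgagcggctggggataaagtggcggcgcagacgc
The E-box letters begin at -49 bases from the start in Cnr1 and at -44 bases in Mgll. They occur in 7.15% of the 32851 promoters of the table. Mgll also holds GGGCGG on the other strand, and 35.7% of promoters hold it on either strand. The stretches of Cnr1 and Mgll are rich in CpG, with observed over expected CpG of 0.930 and 0.871, whereas that of Cnr2 has 0.160, and the median of all promoters is 0.384. TATAAA, which 13.6% of promoters hold, TGACGTCA (1.79%) and CCAAT (37.4%) are not among the letters of these 3 stretches. These are descriptions of letters and not of binding.

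The transcripts of 9 of the 10 genes were found in every library, and Abhd12, Abhd6, Mgll and Naaa had the highest mean levels, in an order that changed with the length used. Levels are compared between genes as RPKM, here the scaled CPM per kilobase of all annotated exons of the gene, as mean ± SD over the 13 libraries. Abhd12 was at 26.3 ± 11.7 RPKM, Abhd6 at 23.7 ± 6.64 RPKM, Mgll at 20.4 ± 5.13 RPKM and Naaa at 18.6 ± 3.18 RPKM, all above the median of 3.22 RPKM of tested genes. Cnr1 followed at 8.57 ± 5.56 RPKM and Daglb at 5.64 ± 1.60 RPKM. Napepld (1.66 ± 0.509 RPKM), Faah (0.878 ± 0.171 RPKM) and Dagla (0.606 ± 0.227 RPKM) lay below that median.

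The 4 leading genes did not differ beyond their spread. Within libraries, the log2 ratio was 0.04 ± 0.78 for Abhd12 over Abhd6, 0.21 ± 0.27 for Abhd6 over Mgll and 0.12 ± 0.27 for Mgll over Naaa (SD, n = 13 each). Cnr1 and Daglb did not differ beyond their spread either (0.48 ± 0.76). Naaa exceeded Cnr1 in 12 of 13 libraries, the exception being female L6S1 A, and Faah exceeded Dagla in 12 of 13. The order depends in part on the length used. With the length of the longest principal transcript, a choice made after seeing the data, the order became Abhd12, Naaa, Mgll, Abhd6, Cnr1, Daglb, Faah, Napepld and Dagla, since the annotated exons of Faah sum to 7834 bases and its principal transcript has 3827. Napepld over Faah was 0.86 ± 0.60 (log2) with the first length and -0.17 ± 0.60 with the second.

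**Figure D1:**
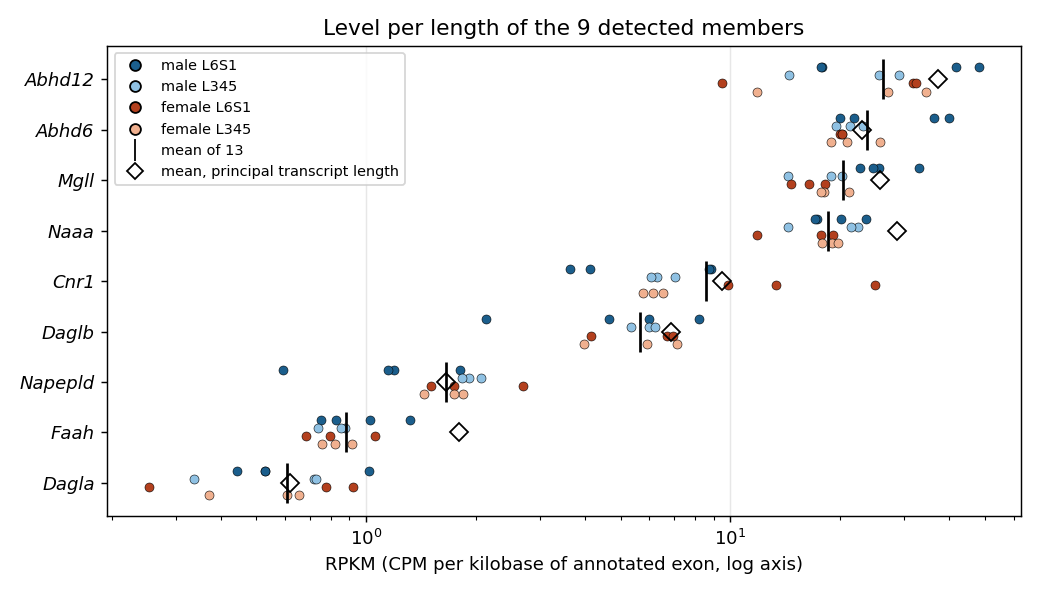
Level per length (RPKM, log axis) of the 9 genes found in every library, 1 point per library, coloured by group; the bar is the mean of 13 libraries and the open diamond the mean with the length of the principal transcript. Abhd12, Abhd6, Mgll and Naaa sit at the top with overlapping points, Dagla at the bottom; Cnr1 has the widest spread for its level, with 3.64 RPKM in its lowest library.

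The pairs of enzymes that share a reaction were unequal in level. Of the diacylglycerol lipases, Daglb exceeded Dagla in 13 of 13 libraries, by a geometric mean of 9.53-fold per length (11.4-fold with the principal transcript). The ratio was 8.48 ± 3.28 in male L6S1, 10.9 ± 4.81 in female L6S1, 10.9 ± 4.30 in male L345 and 10.5 ± 1.37 in female L345. Of the amidases, Naaa, which encodes a lysosomal enzyme that works at acid pH, exceeded Faah in 13 of 13 libraries by 21.2-fold (16.0-fold with the principal transcript). Among the summed RPKM of the 3 hydrolases of 2-arachidonoylglycerol, Abhd12 held 36.2 ± 10.5%, Abhd6 34.5 ± 8.04% and Mgll 29.3 ± 3.65% (SD, n = 13).

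Cnr1 (ENSMUSG00000044288, chr4:33924593-33948831 on GRCm38, plus strand) varied the most of the detected members between libraries. Its coefficient of variation in CPM was 64.9% over the 13 libraries, against a median of 35.4% over all tested genes and 17.1% for Naaa. It was at 57.1, 23.5, 26.5 and 56.4 CPM in male L6S1 A, D, E and F, and at 161, 86.1 and 63.7 CPM in female L6S1 A, B and C. It was at 40.5, 45.5 and 39.1 CPM in male L345 A, B and C, and at 42.1, 37.1 and 39.6 CPM in female L345 A, B and C. The 6 L345 libraries lay close together. All 3 female L6S1 libraries were above every other library, while the male L6S1 libraries fell on both sides of the L345 range, with D and E below it and A and F above it. In these bulk samples, fewer cells with a transcript and less of it per cell cannot be told apart.

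In females, Cnr1 averaged 104 ± 51.1 CPM at L6S1 and 39.6 ± 2.46 CPM at L345 (SD, n = 3 each), 2.62-fold higher at L6S1. The log2 fold change was 1.39 (SE 0.39, 95% interval 0.57 to 2.21, higher in 3 of 3 libraries), but it did not pass the test (adjusted p = 0.613, edgeR's quasi-likelihood test with Benjamini-Hochberg adjustment over 15406 genes). Without female L6S1 A, the highest library, the log2 fold change was 0.92. In males, Cnr1 averaged 40.9 ± 18.4 CPM at L6S1 (n = 4) and 41.7 ± 3.37 CPM at L345 (n = 3), a log2 fold change of -0.03 (95% interval -0.78 to 0.73, adjusted p = 0.968). Without male L6S1 D and E it was 0.44 (adjusted p = 0.628), so the direction in males turned with these libraries. The level effect in males minus that in females was -1.42 (SE 0.52, 95% interval -2.52 to -0.31), and this difference did not pass (adjusted p = 0.409). Without D and E it was -0.95 (adjusted p = 0.841).

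**Figure D2:**
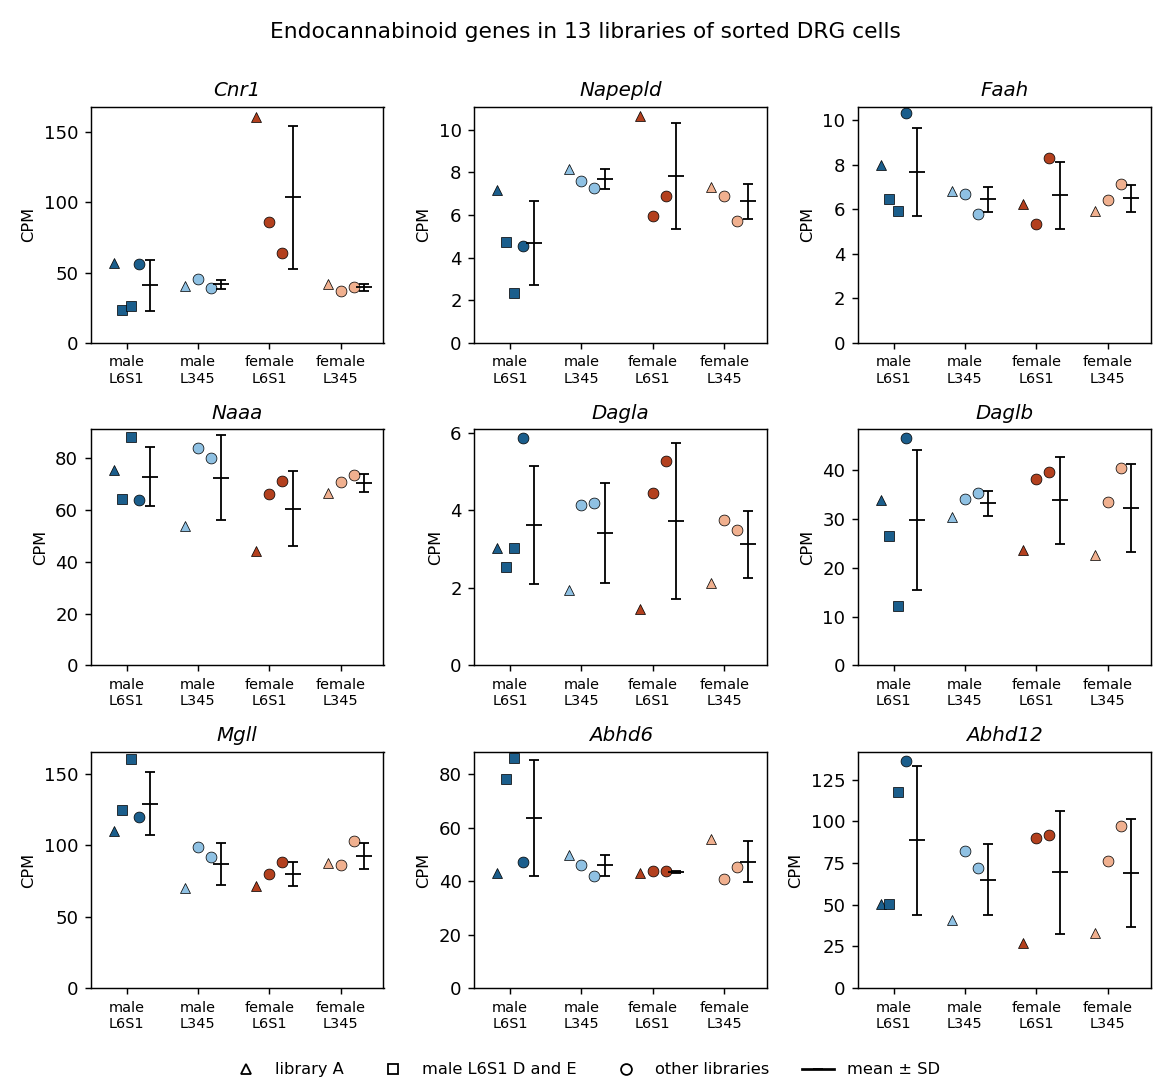
CPM of the 9 genes found in every library, in male L6S1, male L345, female L6S1 and female L345; each point is 1 library (triangles mark the libraries lettered A, squares male L6S1 D and E) and the bar gives the mean ± SD of the group. Cnr1 stands highest in female L6S1, Mgll in male L6S1, and Abhd12 and Dagla have A among their low points.

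Of the marker lists given here beside Cnr1, the leukocyte sum also lay apart between the levels in females, while the fibroblast and peptidergic sums overlapped. The 10 leukocyte markers summed to 6.00 to 6.28 CPM in female L6S1 and to 3.37 to 4.88 CPM in female L345, with 7 of the 10 under 1 CPM in every library. This low sum is not split by gene here for females and is not a measure of the number of leukocytes. The 6 fibroblast markers summed to 195 to 440 CPM in female L6S1 and to 110 to 230 CPM in female L345. The 7 peptidergic markers summed to 9378 to 11391 CPM in female L6S1 and to 9293 to 14009 CPM in female L345. Their part in the level of Cnr1 was not tested.

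The genes whose log2 CPM ran most like that of Cnr1, out of 11219 compared, were Klhl13 (Pearson r = 0.948), Dbpht2 (r = 0.944) and Plk2 (r = 0.908), over 13 libraries. Klhl13 encodes an adaptor of a ubiquitin ligase and Plk2 a kinase of the polo-like family. Without male L6S1 D and E the r values were 0.952, 0.932 and 0.857 over 11 libraries, where Klhl13 stayed 1st, Dbpht2 was 4th and Plk2 was 29th. Klhl13, on chromosome X, was at 64.1, 33.3 and 29.0 CPM in female L6S1 A, B and C and at most 20.9 CPM in the other 10 libraries. These are descriptions over libraries that share depth, group and letter, and the likeness rests in part on female L6S1 A, where all 3 genes and Cnr1 were highest.

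Cnr2 (ENSMUSG00000062585, chr4:135895394-135920207, plus strand) had a single count in all 13 libraries, in female L6S1 A. This is 0.00375 CPM over 266915015 counts, with an exact Poisson 95% interval of 9.49e-05 to 0.0209 CPM that covers counting error only. A count of 0 in a library allows up to 0.111 to 0.230 CPM (3 counts of its total), so no difference between groups could be detected at this depth. Beside it, the pan-leukocyte gene Ptprc was at 0 to 0.744 CPM, and 7 of the 10 leukocyte markers were under 1 CPM in every library.

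Of the anandamide genes, Napepld (ENSMUSG00000044968, chr5:21662901-21701396, minus strand) had its lowest values in male L6S1 libraries, though A lay within the range of the females. It was at 7.17, 4.71, 2.34 and 4.55 CPM in male L6S1 A, D, E and F, and at 10.7, 5.95 and 6.91 CPM in female L6S1 A, B and C. It was at 8.18, 7.59 and 7.25 CPM in male L345 A, B and C, and at 7.32, 6.89 and 5.71 CPM in female L345 A, B and C. The male groups did not overlap, but the highest male L6S1 library lay only just under the lowest male L345 library, and the value of E rests on 40 counts. The log2 fold change in males was -0.70 (SE 0.33, 95% interval -1.40 to -0.01, lower in 4 of 4) and did not pass (adjusted p = 0.195). It was -0.40 without D and E. Without male L6S1 A it was -0.98 and passed (adjusted p = 0.0438), in a fit that called 3135 of 15294 genes (20.5%). In females the log2 fold change was 0.24 (95% interval -0.50 to 0.99).

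Faah (ENSMUSG00000034171, chr4:115967145-116017926, minus strand), the main amidase of anandamide in brain, was steady at 5.35 to 10.3 CPM over the 13 libraries. It averaged 7.68 ± 1.99 CPM in male L6S1, 6.62 ± 1.51 CPM in female L6S1, 6.45 ± 0.571 CPM in male L345 and 6.51 ± 0.606 CPM in female L345. Averaged over the sexes, the log2 fold change of L6S1 over L345 was 0.14, with a 95% interval of -0.28 to 0.56. Naaa (ENSMUSG00000029413, chr5:92257659-92278170, minus strand) averaged 72.8 ± 11.4 CPM in male L6S1, 60.4 ± 14.4 CPM in female L6S1, 72.3 ± 16.4 CPM in male L345 and 70.3 ± 3.48 CPM in female L345. Its log2 fold change averaged over the sexes was -0.11, with a 95% interval of -0.50 to 0.29. For both genes the interval leaves out a change of 2-fold in either direction.

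The diacylglycerol lipases showed no difference beyond their spread between the levels. Dagla (ENSMUSG00000035735, chr19:10245265-10304877, minus strand), the main synthase at synapses in brain, averaged 3.62 ± 1.52 CPM in male L6S1, 3.73 ± 2.01 CPM in female L6S1, 3.42 ± 1.29 CPM in male L345 and 3.12 ± 0.875 CPM in female L345. It rests on 26 to 161 counts per library. Daglb (ENSMUSG00000039206, chr5:143464493-143504442, plus strand) averaged 29.7 ± 14.4 CPM in male L6S1, 33.8 ± 8.83 CPM in female L6S1, 33.1 ± 2.56 CPM in male L345 and 32.2 ± 9.05 CPM in female L345. Male L6S1 E had the lowest level of Daglb, 12.1 CPM. The log2 fold changes averaged over the sexes were 0.16 for Dagla (95% interval -0.52 to 0.85) and -0.04 for Daglb (95% interval -0.61 to 0.52), and that of Daglb turned to 0.17 without male L6S1 D and E.

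Mgll (ENSMUSG00000033174, chr6:88724412-88828360, plus strand), the hydrolase that ends most signalling by 2-arachidonoylglycerol in brain, had its highest values in male L6S1. It was at 110, 125, 161 and 120 CPM in male L6S1 A, D, E and F, and at 71.3, 80.1 and 88.5 CPM in female L6S1 A, B and C. It was at 70.0, 98.6 and 91.9 CPM in male L345 A, B and C, and at 87.8, 86.4 and 103 CPM in female L345 A, B and C. All 4 male L6S1 libraries were above the other 9, with E and D the highest in scaled CPM. In the deposited CPM, male L6S1 A, D, E and F were at 112, 116, 128 and 122, so F lay above D. The log2 fold change in males was 0.57 (SE 0.24, 95% interval 0.07 to 1.07, higher in 4 of 4), which did not pass (adjusted p = 0.166), and 0.40 without D and E. In females it was -0.21 (95% interval -0.74 to 0.32). The effect in males minus that in females was 0.78 (SE 0.34, adjusted p = 0.409), and 0.61 without D and E (adjusted p = 0.841). Of the exon bases of Mgll, 90, or 1.85%, overlap Gm26588 on the other strand, which had 143 counts in all 13 libraries, and whether strand was used in counting is not given in the sources used here.

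Abhd6 (ENSMUSG00000025277, chr14:8002902-8056555, plus strand), which encodes a membrane hydrolase, was at 43.1, 78.1, 85.9 and 47.3 CPM in male L6S1 A, D, E and F. It was at 43.2 to 43.8 CPM in female L6S1, 42.0 to 49.8 CPM in male L345 and 40.8 to 55.7 CPM in female L345. The high values were those of D and E alone, and A and F lay within the range of the other groups. The log2 fold change in males was 0.47 (adjusted p = 0.271) with D and E and -0.03 (adjusted p = 0.955) without them. Abhd12 (ENSMUSG00000032046, chr2:150832493-150904741, minus strand), whose loss in humans causes a neurodegenerative disease with sensory neuropathy, was at 50.4, 50.3, 117 and 136 CPM in male L6S1 A, D, E and F, and at 26.9, 90.0 and 91.6 CPM in female L6S1 A, B and C. It was at 41.0, 82.1 and 72.3 CPM in male L345 A, B and C, and at 33.4, 76.4 and 97.2 CPM in female L345 A, B and C. The groups overlapped throughout, and the log2 fold change averaged over the sexes was 0.23 (95% interval -0.52 to 0.97).

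In D and E, Abhd6 and, in scaled CPM, Mgll were highest and Cnr1 was lowest. There the 8 markers of nonpeptidergic nociceptors summed to 962 and 587 CPM, against 1066 to 2243 CPM in the other 11 libraries. The leukocyte markers summed to 10.4 and 14.0 CPM in D and E, against 2.87 to 8.89 CPM. Most of that sum was C1qb, at 7.02 and 10.7 CPM in D and E, while Ptprc was at 0.236 and 0 CPM, C1qa at 0 CPM in both and C1qc at most 0.292 CPM. Over the whole groups, the peptidergic markers summed to 11020 to 30692 CPM in male L6S1 and to 8036 to 9431 CPM in male L345, without overlap. The nonpeptidergic markers went the other way, at 587 to 1758 CPM in male L6S1 and 1769 to 2243 CPM in male L345, only just without overlap. The neuron markers summed to 10211 to 13353 CPM in male L6S1 and to 8283 to 9238 CPM in male L345, and the leukocyte markers to 5.25 to 14.0 CPM in male L6S1 and to 2.87 to 5.13 CPM in male L345, again without overlap. The TMM scaling factors of D and E were 0.925 and 0.796, against 1.01 to 1.05 in the other 11, so that their CPM here lies above the deposited CPM. The part of these differences in the values of Mgll, Abhd6, Napepld and Cnr1 was not tested.

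**Figure D3:**
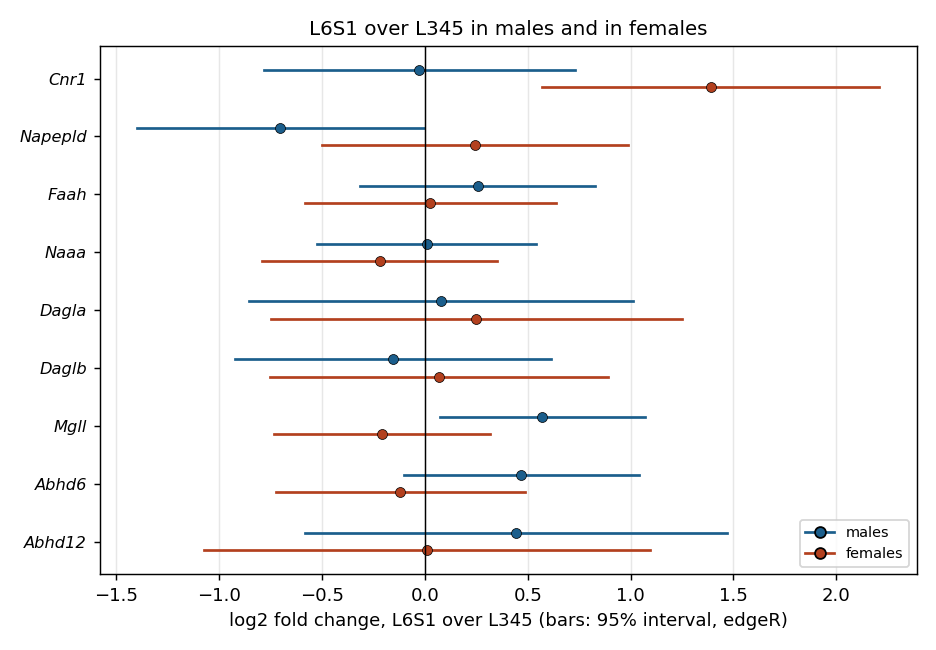
Log2 fold change of L6S1 over L345 in males (upper point of each pair) and in females (lower point) for the 9 tested genes, with 95% intervals from edgeR. The interval of Cnr1 in females (0.57 to 2.21) and of Mgll in males (0.07 to 1.07) lies above 0 and that of Napepld in males (-1.40 to -0.01) below it, before adjustment for the number of genes.

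Over the whole set, no member passed in any comparison of the levels, at an adjusted p under 0.05 by edgeR. Averaged over the sexes, 0 of 9 tested members were called, against 0.448% of all tested genes (69 of 15406), and the median log2 fold change of the 9 members was 0.16, against 0.02 over all genes. In females 0 of 9 were called, against 0.0195% of genes, and in males 0 of 9, against 0.221%. In the test of the difference between the sexes 0 of 9 were called, against 0.00% of genes. At an unadjusted p under 0.05 there were 1 member averaged over the sexes (8.39% of all genes), 1 in females (2.25%), 2 in males (25.3%) and 2 in the difference (11.7%). DESeq2 and limma voom called 0 members in each of these comparisons too. With a block for the replicate letter the test called 56 of 15406 genes in females, and again 0 members. In males only the letter A occurs at both levels, so the blocked effect in males rests on library A of each level. Calls with the block are therefore not given for males, for the mean of both sexes or for the difference.

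Without a test, groups that did not overlap in CPM were found for 1 member in females, Cnr1 (higher at L6S1, as were 4.89% of tested genes, with 3.86% lower), and for 2 members in males, Mgll (higher at L6S1, as were 9.20%) and Napepld (lower at L6S1, as were 9.49%). For Cnr1, Mgll and Napepld alike, 1 of 9 members in a direction lies close to these shares of all genes.

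Between the sexes no member was called, and those without overlap, Mgll and Cnr1 at L6S1, were already named. All differences between the sexes given here are also differences between submissions, and the design cannot tell them apart. Of the 9 tested members 0 were called for males over females averaged over the levels, against 0.0779% of all genes by edgeR (12 of 15406). At an unadjusted p under 0.05 there was 1 member, Cnr1, against 6.10% of genes, and DESeq2 and limma voom called 0 members. The log2 fold change of Cnr1 was -0.63 (SE 0.26, 95% interval -1.19 to -0.08, adjusted p = 0.665) and that of Mgll 0.30 (SE 0.17, 95% interval -0.06 to 0.66, adjusted p = 0.665). Without male L6S1 D and E they were -0.41 for Cnr1 and 0.21 for Mgll (adjusted p = 0.881 for both). At L6S1 the sexes did not overlap for Mgll, higher in males (as were 6.34% of tested genes), and Cnr1, lower in males (as were 5.54%). With 9 members, 1 in each direction lies close to these shares. The L6S1 libraries are the same as in the comparison of levels. At L345 the sexes overlapped for all 9 members, while 3.42% of genes were higher and 3.18% lower in males without overlap. In the blocked fit given next, male L6S1 is library A alone, so no conclusion is drawn from its calls or from their absence. With the replicate letter as a block, 369 genes (2.40%) were called between the sexes, and 0 members.

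The libraries lettered A stood low or high for several members in more than 1 group. Abhd12 in A was below the mean of the other libraries of its group by a log2 difference of -0.88 in male L6S1, -1.75 in female L6S1, -0.91 in male L345 and -1.37 in female L345. For Dagla the differences were -0.23, -1.67, -1.07 and -0.74 in the same order of groups. Cnr1 and Napepld were higher in A in male and female L6S1, by 0.80 and 1.12 for Cnr1 and by 0.94 and 0.73 for Napepld. A was the lowest library in at least 3 of the 4 groups for 5 of 9 members (Naaa, Dagla, Daglb, Mgll and Abhd12), as it was for 28.0% of all tested genes, and the highest in at least 3 groups for 2 (Cnr1 and Napepld), as for another 28.0%. These shares are given as a description with no test, and the labels do not say what the letter A has in common across groups. Without the 4 A libraries, a choice made after seeing the data, the log2 fold change of Cnr1 was 0.97 in females and 0.35 averaged over the sexes. With all 13 libraries the averaged value was 0.68 (adjusted p = 0.517, edgeR). Without male L6S1 D and E it was 0.91 (adjusted p = 0.104, edgeR).

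**Figure D4:**
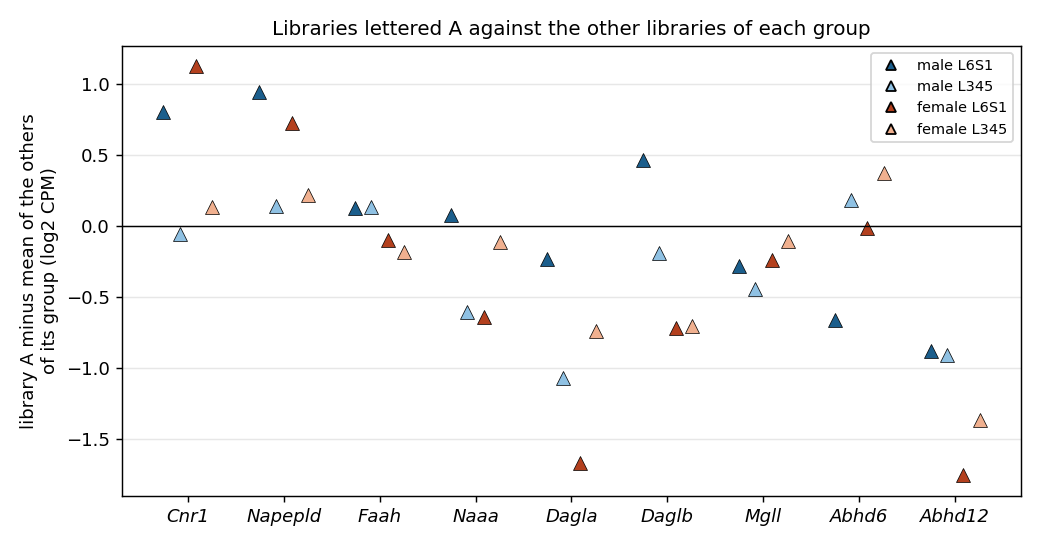
Log2 CPM of library A minus the mean of the other libraries of its group, for the 9 detected genes, 1 triangle per group (male L6S1, male L345, female L6S1 and female L345, left to right). Abhd12, Dagla and Mgll lie below 0 in all 4 groups and Napepld above 0 in all 4.

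Other genes of the pathway gave the surroundings of the 10 members. Of 35 listed genes for synthesis, oxygenation, transport, other receptors and CB1 partners, 30 were tested and 0 were called in any of the 5 comparisons by edgeR, with 3 at an unadjusted p under 0.05 averaged over the sexes (8.39% of all genes), 1 in females (2.25%), 5 in males (25.3%), 3 in the difference (11.7%) and 3 between the sexes (6.10%). By limma voom 0 of them were called. DESeq2 called Trpm8 averaged over the sexes, where it called 1.05% of all genes, and in females, where it called 0.230%, as higher at L6S1. It also called Fabp3 and Fabp5 as higher at L6S1 in males, where it called 6.53% of all genes. Without male L6S1 D and E, the log2 fold changes in males by edgeR were 0.38 for Fabp3 (adjusted p = 0.632) and 0.14 for Fabp5 (adjusted p = 0.754). With the replicate letter as a block, male L6S1 is library A alone, and calls between the sexes from that fit are not given. Hrasls5 and Alox15 had no counts. Ptgs2, the oxygenase COX-2, reached at most 0.657 CPM and Gpr55, a further receptor for cannabinoid ligands, at most 0.318 CPM, too low to be tested. Cnrip1, which encodes a protein that binds the tail of CB1, was at 66.0 to 137 CPM in the 13 libraries, and Sgip1, which encodes an endocytic protein that binds CB1, at up to 49.9 CPM, lowest in male L6S1 E.

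Trpm8, the cold-sensing channel, had the smallest p of the list between the levels. It was at 7.92, 8.62, 9.36 and 14.5 CPM in male L6S1 A, D, E and F, and at 18.6, 16.7 and 13.7 CPM in female L6S1 A, B and C. It was at 8.78, 6.80 and 11.5 CPM in male L345 A, B and C, and at 2.70, 5.42 and 6.98 CPM in female L345 A, B and C. In females every L6S1 library was above every L345 library, whereas in males the levels overlapped. The log2 fold change averaged over the sexes was 0.93 (SE 0.24, adjusted p = 0.168) by edgeR, and DESeq2 called it (0.94, adjusted p = 0.0251). In females it was 1.69 (adjusted p = 0.174), and it was called there by DESeq2 (adjusted p = 0.00412) and by the edgeR test on unfiltered genes (adjusted p = 0.0207), which called 0.126% of genes.

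Trpv1, the capsaicin receptor, at which anandamide is also an agonist, averaged 628 ± 383 CPM in male L6S1, 866 ± 143 CPM in female L6S1, 491 ± 56.3 CPM in male L345 and 558 ± 23.9 CPM in female L345. Male L6S1 D and E were lowest of their group, at 462 and 221 CPM. Its log2 fold change averaged over the sexes was 0.50 (adjusted p = 0.613), and without D and E it was 0.76 and passed (adjusted p = 0.0370), as did 0.476% of genes. The next smallest p belonged to Plcb4, a phospholipase C (-0.58, adjusted p = 0.529), and to the fatty acid carriers Fabp3 (0.60, adjusted p = 0.570) and Fabp5 (0.57, adjusted p = 0.593). Fabp5 was at 257 and 312 CPM in male L6S1 D and E and at 71.0 to 95.2 CPM in the other 11 libraries.

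Between the sexes, the smallest p of the list belonged to Ppara, a nuclear receptor for N-acylethanolamines (log2 fold change of males over females -1.08), Pla2g16 (0.67), Plcb1 (-0.49) and Plcb4 (-0.46), each with an adjusted p of 0.665. Ppara was low, averaging 0.684 ± 0.441 CPM in male L6S1, 1.00 ± 0.160 CPM in female L6S1, 0.370 ± 0.342 CPM in male L345 and 1.18 ± 0.124 CPM in female L345. Pla2g16, a phospholipase and acyltransferase, was at 18.8 and 19.2 CPM in male L6S1 D and E and at 4.41 to 9.98 CPM in the other 11 libraries, and without D and E its log2 fold change between the sexes was 0.22.

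**Figure D5:**
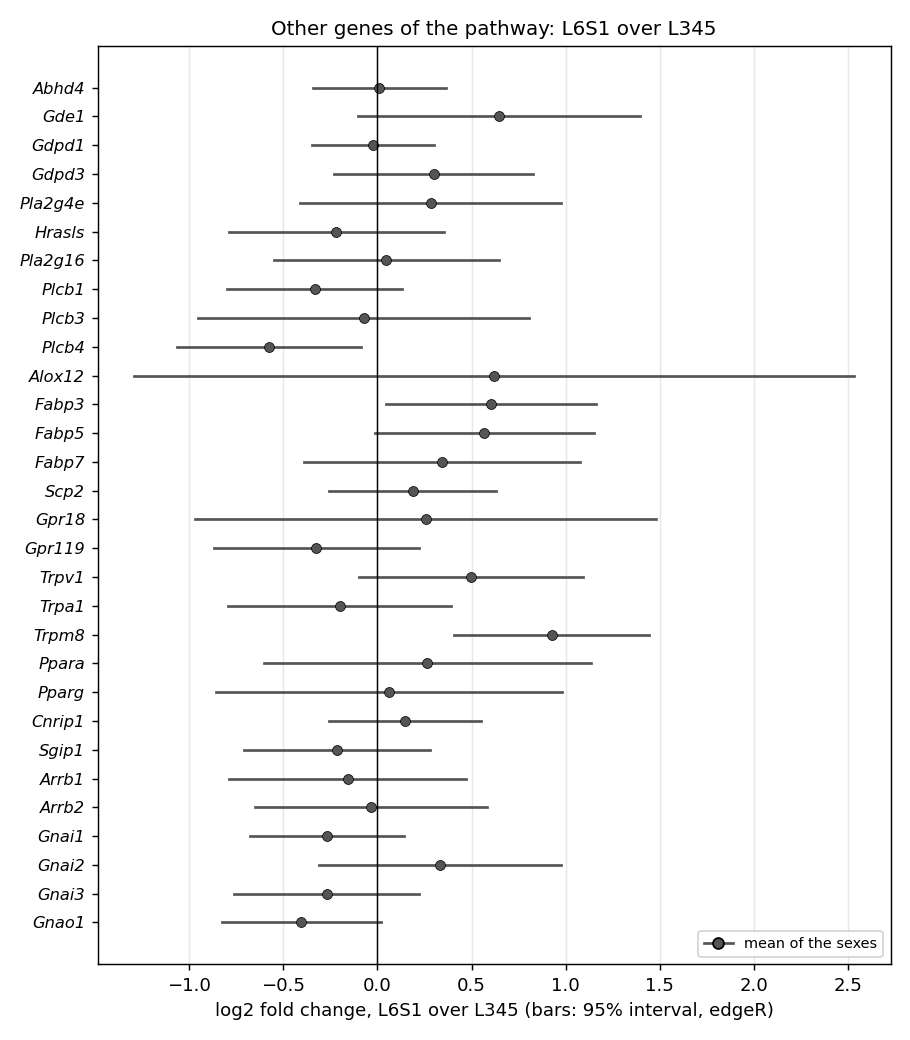
Log2 fold change of L6S1 over L345, averaged over the sexes, for the 30 tested genes of the wider pathway, with 95% intervals from edgeR. Trpm8 (0.93) lies farthest above 0 and Plcb4 (-0.58) farthest below among the genes whose interval leaves out 0.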

How the data were processed

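Whole-number read counts per gene were deposited by the authors for 13 libraries, each from 10 ng of RNA, together with CPM (the count over the library's total, which the authors deposited unscaled) and RPKM (that CPM per kilobase of the listed gene length, also deposited). Per the submitters' processing notes, STAR 2.0.4b, Subread, featureCounts 1.4.5, Salmon, GRCm38.p2 and mm10 were used, in roles not given; the handling of strand and of reads with several matches is not given in the sources used here. Recomputing the deposited CPM and RPKM from the counts left relative differences of at most 5.10e-15 and 5.21e-14, and no libraries were identical. Symbols came from GENCODE M21 (GRCm38), which named 40254 of 41388 identifiers; the other 1134 held 0.109% of counts.

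The counts were filtered with filterByExpr, given TMM scaling factors and fitted with edgeR 4.0.16 in R 4.3.3 (robust quasi-likelihood test), with 1 mean per group over 13 libraries, Benjamini-Hochberg adjustment over 15406 genes and calls at an adjusted p under 0.05. CPM and RPKM in the text use the TMM-scaled totals. The SE was computed from the fold change and the F statistic (its log2 size over the root of F). Alternatives were DESeq2 1.42.0, limma voom (limma 3.58.1), other scalings, no filter, a replicate block, and libraries left out. p-values measure the spread between these pools.

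Deviations of same-lettered libraries from their group means had r = 0.101 to 0.520 over 4 pairs of levels and 0.221 to 0.505 over 4 pairs of sexes. Male L6S1 A with female L345 A was at -0.106. Pairs of different letters ran from -0.556 (female L6S1 A with female L345 C) to 0.456 (male L6S1 D with female L345 A). All 4 pairs of levels and all 4 pairs of sexes were positive, while pairs of different letters took both signs. The ranges overlap, and whether same-lettered pairs run higher was not tested. The letters were used as pairs in the block only, and the labels do not say what a letter marks. The block left 2 residual degrees of freedom for levels and 4 for sexes, against 9 without it. Among males only A occurs at both levels, so the blocked level effect in males compares the A libraries alone. Male L6S1 D, E and F have letters of their own, so in the blocked sex comparison male L6S1 is A alone.

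The members and gene lists were chosen with earlier results of these data known. All 10 members were named, Ret, the 4 pathway genes with the smallest p between levels and between sexes, 5 fixed pathway genes, and the 3 genes most like Cnr1. The result of 1 marker list is not reported here. The Poisson interval of Cnr2 and the floors of 3 counts cover counting error only, while the intervals from edgeR measure the spread between pools.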

Additional observations from a re-analysis of the deposited data

Results flagged for a closer look

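In male L6S1, the group with 4 libraries, 2 of the 20 genes looked at had 1 library far from the other 3, with a gap to the nearest that took up most of the group's range (Dixon's test at 95%); chance alone marks about 1 in 20. Dagla was at 5.87 CPM in male L6S1 F and at 2.54 to 3.04 CPM in A, D and E. Ppara was at 1.35 CPM in male L6S1 E and at 0.445 to 0.474 CPM in the other 3.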

How the results depend on the processing

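Over 41 log2 fold changes of members and named pathway genes, 816 of 861 recomputed values kept their direction and side of the threshold, 40 turned direction and 5 passed; the only member value among these 5 was Napepld in males without male L6S1 A. In females the block changed no member's call, and Cnr1 came closest, at 1.28 (adjusted p = 0.0593, edgeR). In males the blocked level effects compare the A libraries alone, and in the blocked sex effects male L6S1 is A alone. The blocked values that follow rest on these libraries and are given as sizes only. With the block, the level effect averaged over the sexes turned to 0.011 for Napepld, 0.12 for Naaa, 0.12 for Daglb, -0.16 for Abhd6 and -0.078 for Fabp3, the level effect in males to 0.50 for Cnr1 and -0.21 for Abhd6, its difference between the sexes to -0.10 for Abhd6, and the sex effect to 0.24 for Daglb and -0.085 for Abhd6. Without male L6S1 D and E, the level effect averaged over the sexes turned to 0.17 for Daglb and -0.076 for Abhd6, that in males to 0.44 for Cnr1 and -0.032 for Abhd6, and the sex effect to 0.14 for Daglb and -0.0024 for Abhd6. Without the 4 A libraries, the sex effect turned to -0.082 for Dagla and -0.021 for Abhd12 and the level effect in females to 0.023 for Abhd6, and with library totals alone the sex effect of Dagla was -0.021. None of the effects without a block was called, and the cause of these changes was not tested.

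Leaving out 1 library at a time gave ranges across 0 for the level effect averaged over the sexes of Dagla (-0.0088 to 0.36) and Daglb (-0.19 to 0.078), for that in females of Abhd6 (-0.21 to 0.0065) and Napepld (-0.043 to 0.41), for that in males of Cnr1 (-0.23 to 0.13), and for the sex effect of Abhd12 (-0.060 to 0.30), Dagla (-0.14 to 0.23) and Daglb (-0.22 to 0.049). Napepld in males ran from -0.98 to -0.49, and the number of members called in males from 0 to 1.

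The number of genes called averaged over the sexes was 144 without the filter, 190 by DESeq2 and 118 with the block, and 28 to 129 with 1 library left out. In females it was 34 without the filter, 45 by DESeq2, 11 by limma voom, 56 with the block, 23 without D and E, 0 without the A libraries, and 0 to 11 with 1 library left out. In males it was 264 without the filter, 904 by DESeq2, 16 by limma voom, 19 without D and E and 103 without the A libraries. With 1 library left out it ran from 4 to 3135 in males (3135 without male L6S1 A). The difference had 1 without the filter. Between the sexes it was 19 without the filter, 25 by DESeq2, 369 with the block, 7 without D and E, 5 without the A libraries, and 10 to 14 with 1 left out.

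With library totals alone, 39 of 40 group means of members moved by less than 1 SD; the exception was Abhd6 in female L6S1 (45.3 CPM). Depth limits Cnr2, Ptgs2 and Gpr55.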
